A study of Mus musculus with 8 samples.

Results

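Birc2, Birc3, Birc5, Birc6 and Xiap encode inhibitor of apoptosis proteins, and are 5 of the 22367 protein-coding genes counted here. Birc2 and Birc3, neighbours on mouse chromosome 9, were chosen by their rise in H3K27me3 promoter peaks from LLC-NR to LLC-R tumors. Birc5, Birc6 and Xiap were added as relatives of the pair. The H3K27me3 values of the Birc2 and Birc3 promoters are therefore a description of what selected them.

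The tumors were isografts of Lewis lung carcinoma (LLC) cells, a mouse lung cancer line, under the skin of the right flank of young adult female C57BL/6J mice. LLC-NR cells were sensitive to VEGF-Trap, a decoy receptor that binds the angiogenic factor VEGF. LLC-R cells were selected in mice from the same line for resistance to this agent, so that resistance was represented by 1 selected line. Chromatin was cut with micrococcal nuclease and immunoprecipitated for 4 histone marks, giving 8 libraries, 1 for each mark in each line. No VEGF-Trap treatment of these isografts is named in the labels, and the number of tumors behind a library is not given in the sources used here. With 1 library per group there was no replicate, no test and no p-value between the lines, and intervals cover counting error only. The isografts also held host cells, and a change in the mix of cells cannot be told apart from a change of chromatin within a cell.

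Inhibitor of apoptosis proteins carry baculovirus IAP repeat (BIR) domains. Xiap binds and blocks caspases, the proteases that carry out apoptosis. Birc2 and Birc3 encode cIAP1 and cIAP2, ubiquitin ligases that work with TRAF proteins at the TNF receptor and set the balance between NF-kappaB signaling and cell death. Birc5 encodes survivin, a subunit of the chromosomal passenger complex in mitosis, and Birc6 encodes a giant protein that joins a BIR domain to a ubiquitin-conjugating domain. H3K4me3 and H3K9ac mark promoters in use, H3K27me3 is the mark of Polycomb repression, and H3K36me3 accompanies elongation along the gene body.

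The deposited files list nucleosome-sized peaks of fixed length by position, without height. A promoter began 1 kb before the transcription start site (TSS) and ended 0.5 kb after it, and held at most 9 peaks of a mark. The libraries held 5660458 to 9101721 peaks, which covered 31.3% to 50.4% of the genome. Background windows of 1.5 kb, at least 5 kb from any protein-coding TSS, also held peaks. Their means in LLC-NR and LLC-R were 3.21 and 3.22 for H3K4me3 and 4.92 and 4.52 for H3K9ac. For H3K27me3 they were 4.19 and 5.27, and for H3K36me3 3.72 and 5.06. LLC-R had 1.26 times the peaks of LLC-NR for H3K27me3, 1.36 times for H3K36me3, 0.919 times for H3K9ac and 0.997 times for H3K4me3. Log2 ratios of LLC-R over LLC-NR were therefore scaled by the peaks of each library. The uniquely mapped reads that the study lists differed between the lines by more than the peaks did. They were higher in LLC-R for H3K27me3 and H3K36me3 and lower for H3K9ac and H3K4me3. In promoters and gene bodies, 10% of the mean over all genes was added to the scaled values as a pseudocount.

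Birc2 (chr9:7818236-7835255, minus strand, mm9) and Birc3 (chr9:7848699-7873186, minus strand) lie head to tail with 13.4 kb between them, and their TSSs are 37.9 kb apart. Birc5 lies at chr11:117710565-117717069, Birc6 at chr17:74927635-75103113 and Xiap at chrX:39412856-39462833, all on the plus strand. The genes span 6.51 kb in Birc5, 17.0 kb in Birc2, 24.5 kb in Birc3, 50 kb in Xiap and 175 kb in Birc6. The TSS of GENCODE vM1 was used for every gene. RefSeq places 2 starts of Birc2 upstream, at -1802 and -1551 bp from the vM1 TSS, where vM1 has the TSS of the gene C330006D17Rik (7837064). It places 3 starts of Xiap 8157, 8719 and 11563 bp downstream of the vM1 TSS. The RefSeq starts of Birc3 and Birc6 are the same as in vM1, and that of Birc5 lies at -14 bp.

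The 250 bases before the RefSeq start are shown for the pair and for Birc5, because the H3K27me3 comparison turned on these promoters. They were found by matching the RefSeq promoters (GRCm38.p6) to NCBIM37, which is mm9, and are written 5′ to 3′ on the strand of the gene with every CpG in capitals. The windows are chr9:7837058-7837307 for Birc2, chr9:7873171-7873420 for Birc3 and chr11:117710301-117710550 for Birc5.
Birc2: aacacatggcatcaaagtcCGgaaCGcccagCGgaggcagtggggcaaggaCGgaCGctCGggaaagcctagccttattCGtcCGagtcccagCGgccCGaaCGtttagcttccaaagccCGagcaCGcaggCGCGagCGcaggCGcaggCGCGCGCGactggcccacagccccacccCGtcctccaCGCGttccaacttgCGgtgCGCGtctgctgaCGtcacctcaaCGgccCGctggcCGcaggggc
Birc3: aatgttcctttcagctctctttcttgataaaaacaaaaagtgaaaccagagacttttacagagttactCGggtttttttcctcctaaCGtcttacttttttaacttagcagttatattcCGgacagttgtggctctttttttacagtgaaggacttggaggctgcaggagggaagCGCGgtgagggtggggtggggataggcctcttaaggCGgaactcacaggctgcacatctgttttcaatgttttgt
Birc5: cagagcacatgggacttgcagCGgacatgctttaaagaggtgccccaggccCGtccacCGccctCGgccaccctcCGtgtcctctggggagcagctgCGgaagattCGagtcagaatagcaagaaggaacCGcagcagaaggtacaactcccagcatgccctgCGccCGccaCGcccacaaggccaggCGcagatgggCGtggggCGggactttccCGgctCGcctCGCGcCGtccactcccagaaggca
The Birc2 window holds 31 CpG and the Birc5 window 19, whereas the Birc3 window holds 6. Their G+C contents are 68.4%, 65.6% and 43.6%. Over all promoters, the 250 bases before the vM1 TSS hold a median of 8 CpG at 54.4% G+C. The same window before the vM1 TSS of Birc2 holds 2 CpG at 34% G+C, so that the vM1 and RefSeq starts of Birc2 differ in kind. By the class of CpG content, Birc3, Birc5 and Birc6 have CpG-rich promoters (HCPs), and Birc2 and Xiap are ICP and LCP at the vM1 TSS used here. Birc2 is an HCP at its RefSeq starts. Xiap is an HCP at the RefSeq starts 8157 and 8719 bp downstream, which vM1 also lists, and LCP at that 11563 bp downstream. A NF-kappaB motif, searched on both strands, was found in the Birc5 window at -44 as GGGACTTTCC and in no window of the other 4 genes. It occurs in 918 of 22367 promoter windows of this length (4.10%).

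At Birc2, H3K27me3 promoter peaks numbered 2 in LLC-NR against 5 in LLC-R. At Birc3 they numbered 1 and 4. Both promoters were poor in the mark in LLC-NR, at percentiles 10.5 and 5.96 of all promoters, and stayed below the median of 6 peaks in LLC-R, at percentiles 30.6 and 15.1. Background windows had means of 4.19 and 5.27 peaks in LLC-NR and LLC-R, so both promoters were below the background mean in both lines. The scaled log2 ratios were 0.86 for Birc2 and 1.33 for Birc3, and 0.19 and 0.71 with scaling by mapped reads. The ratio of Birc3 fell short of 1.5-fold at 0.56 when any overlap counted a peak, and was 0.07 when the promoter was extended to 1 kb after the TSS. Under these alternatives Xiap, at 0.59 and 0.60, was past 1.5-fold in its place, and Birc2 was at 0.84 and 0.78. A gain of 3 or more peaks was seen in 13.1% of all promoters.

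Birc5 and Birc6 did not share this gain. Birc5, survivin, had 5 H3K27me3 peaks in LLC-NR against 4 in LLC-R, with a scaled log2 ratio of -0.59. Birc6 had 4 and 3 peaks, with a scaled log2 ratio of -0.65. Each lost 1 peak while the median promoter went from 5 to 6, and Birc5 moved from percentile 54.3 to 15.1 and Birc6 from 34.3 to 8.25. Xiap, the caspase inhibitor, had 3 and 5 peaks and a log2 ratio of 0.36, which became -0.32 with scaling by mapped reads and -0.30 in a promoter of 0.5 kb on each side of the TSS. Past 1.5-fold, 2 of 5 genes were higher in LLC-R (Birc2 and Birc3, which were chosen for it), beside 10.8% of all promoters, and 1 of 5 (Birc3) with scaling by mapped reads, beside 2.83%. Lower in LLC-R were 2 of 5 (Birc5 and Birc6), beside 6.71% of all promoters, and beside 64.5% with scaling by mapped reads. The ratio of Birc5 lies on the 1.5-fold threshold, and without scaling the ratios of Birc5 and Birc6 were -0.29 and -0.36.

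**Figure D1:**
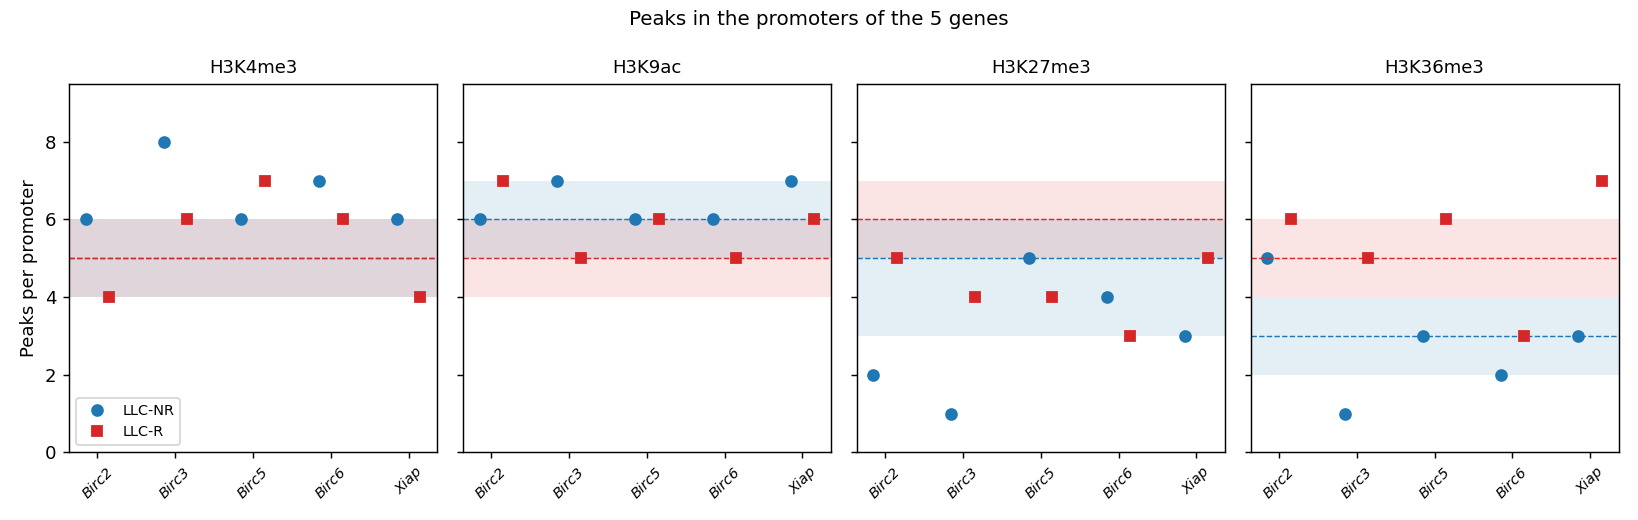
Number of peaks per promoter (y axis) of the 5 genes (x axis) for each mark, with circles for LLC-NR and squares for LLC-R. Dashed lines are the medians and bands the interquartile ranges of all 22367 promoters in the color of the line. H3K27me3 rose from 2 to 5 at Birc2 and from 1 to 4 at Birc3, and went from 5 to 4 at Birc5 and from 4 to 3 at Birc6.

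Promoters with few peaks in LLC-NR gained peaks across the genome. Of 1384 promoters with 2 H3K27me3 peaks in LLC-NR, the median in LLC-R was 5 and 50.6% had at least the 5 of Birc2. Of 632 promoters with 1 peak, the median in LLC-R was 3 (interquartile range 2 to 5) and 47.9% had at least the 4 of Birc3. The gain at the pair was thus near the middle of promoters with the same starting number. Birc5 and Birc6 stood near the low end of theirs. Of 4886 promoters with 5 peaks in LLC-NR, 10.6% had 4 or fewer in LLC-R, and of 4055 promoters with 4 peaks, 5.92% had 3 or fewer. Of 2619 promoters that started with 3 peaks like Xiap, 68.8% had 5 or more.

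**Figure D2:**
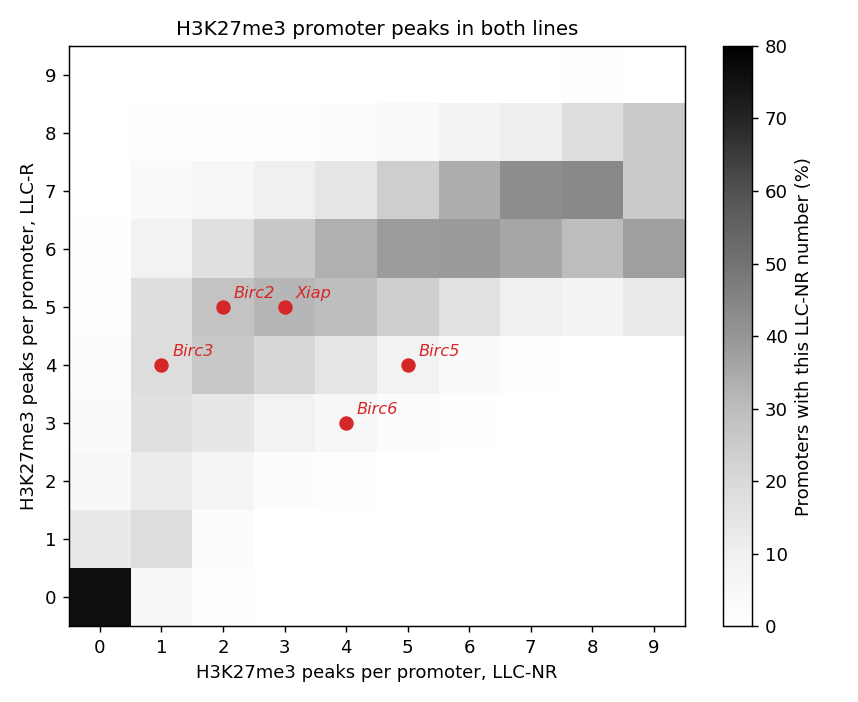
H3K27me3 peaks per promoter in LLC-NR (x axis) and LLC-R (y axis), with the grey scale giving the percent of promoters of each LLC-NR number and red points the 5 genes. Birc2, Birc3 and Xiap lie at or near the middle of their columns (2 to 5, 1 to 4 and 3 to 5), and Birc5 and Birc6 lie low in theirs (5 to 4 and 4 to 3).

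The position of the peaks differed at the pair. At Birc3, the LLC-NR promoter had its H3K27me3 peak at +258 bp from the TSS, and the LLC-R promoter had peaks at -534, -216, +22 and +253 bp. The downstream peak was thus present in both lines, and the added peaks covered the TSS and its upstream side. LLC-NR had further peaks at +501 bp, just outside the promoter, and at +816 and +1014 bp. LLC-R had none between +253 and +1128 bp. The gain at Birc3 thus depended on where the promoter window ended. The H3K27me3 gap over the Birc3 TSS, measured between the nearest flanking midpoints, narrowed from 1665 bp in LLC-NR to 238 bp in LLC-R. At Birc2 the peaks lay at -711 and -272 bp in LLC-NR, and at -636, -352, -149, +150 and +400 bp in LLC-R. The gap over its TSS narrowed from 906 to 299 bp, and that over its RefSeq start from 371 to 197 bp. The gaps at the pair rest in part on the promoter peaks that chose it, and are a description too. Over all promoters the median gap went from 341 to 290 bp. The gap went the other way at Birc5, from 250 to 535 bp, and at Birc6, from 461 to 962 bp.

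The choice of start changed the picture at Birc2. At its RefSeq start at -1802 bp, H3K27me3 had 3 peaks in LLC-NR, with those upstream of that start at -501 and -225 bp from it. LLC-R had 5, at -883, -666, -99, +98 and +466 bp. The log2 ratio there was 0.36, short of 1.5-fold. At the 5 other vM1 starts of Birc3 that lie 43 to 313 bp downstream of its TSS, H3K27me3 had 2 and 4 peaks and a log2 ratio of 0.57. The internal start of Birc3, 12844 bp downstream, had 4 in both lines. At the RefSeq start of Xiap, 8719 bp downstream, H3K27me3 had 3 and 4 peaks and a log2 ratio of 0.08.

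**Figure D3:**
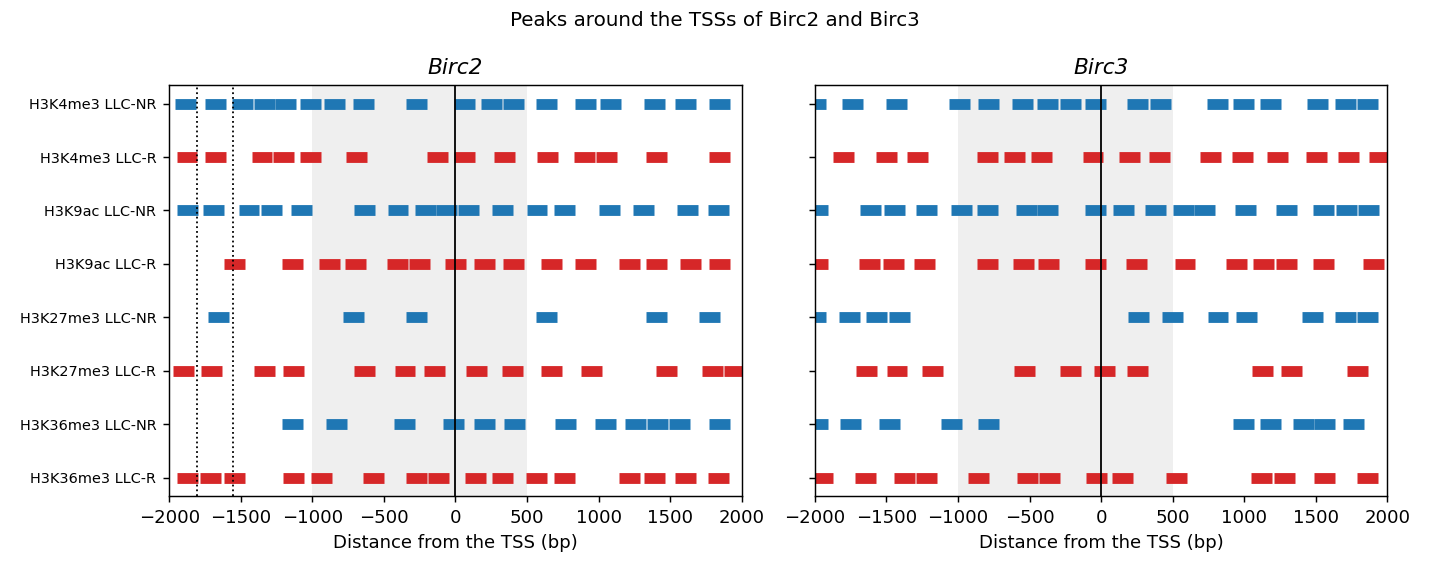
Peaks of each library (rows) within 2 kb of the vM1 TSS of Birc2 and Birc3, with the distance from the TSS in bp on the x axis, LLC-NR in blue and LLC-R in red. The grey band is the promoter, solid lines are the vM1 TSS and dotted lines the RefSeq starts of Birc2 at -1802 and -1551 bp. The LLC-NR gap of 1665 bp in H3K27me3 over the Birc3 TSS is filled in LLC-R.

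All 5 promoters had H3K4me3 peaks in both lines, with fewer in LLC-R at 4 of them. Background windows had means of 3.21 and 3.22 in LLC-NR and LLC-R, so the 4 peaks of Birc2 and Xiap in LLC-R were little above background. At Birc3, H3K4me3 had 8 peaks in LLC-NR, at percentile 97.0 of all promoters, against 6 in LLC-R. H3K4me3 went from 6 to 4 peaks at Birc2 and Xiap (percentile 64.2 to 33.1), from 7 to 6 at Birc6, and from 6 to 7 at Birc5. The log2 ratios were -0.53 for Birc2 and Xiap, -0.38 for Birc3, -0.20 for Birc6 (0.05 with scaling by mapped reads) and 0.21 for Birc5. Past 1.5-fold, 0 of 5 genes were higher, beside 7.28% of all promoters, and 0 of 5 were lower, beside 10.5%. At the RefSeq starts, Birc2 had 7 H3K4me3 peaks in both lines and Xiap 6 in both.

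H3K9ac, an acetylation found at promoters in use, had 6 peaks in LLC-NR against 7 in LLC-R at Birc2. It had 7 and 5 peaks at Birc3, 6 and 6 at Birc5, 6 and 5 at Birc6, and 7 and 6 at Xiap. The log2 ratios ran from -0.33 for Birc3 to 0.32 for Birc2, and from 0.29 to 0.95 with scaling by mapped reads. Again 0 of 5 genes were higher past 1.5-fold, beside 4.06% of all promoters, and 0 of 5 were lower, beside 6.8%. At its RefSeq start Birc2 had 6 and 4 peaks, so the direction at Birc2 depended on the start.

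A promoter was called active where H3K4me3 or H3K9ac was above the mean of all promoters and H3K27me3 below it, and bivalent where H3K27me3 was above it too. The mean H3K27me3 promoter of LLC-NR had 4.56 peaks, that of LLC-R 5.46. Birc2, Birc3, Birc6 and Xiap were active in both lines, and Birc5 was bivalent in LLC-NR and active in LLC-R. In LLC-R, Birc2 and Xiap met the rule through H3K9ac, since their 4 H3K4me3 peaks were below the mean of 4.61. Active promoters were 29.8% of all for LLC-NR against 28.3% for LLC-R, and bivalent promoters 48.4% against 53.1%. The added H3K27me3 peaks thus left Birc2 and Birc3 below the mean of the promoters of LLC-R.

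The share of LLC-NR peaks with a nearby LLC-R peak differed between the marks. LLC-R peaks covered 31.3% of the genome for H3K4me3, 43.5% for H3K9ac, 50.4% for H3K27me3 and 48.4% for H3K36me3. Many peaks would therefore lie near one another without a kept position, and that share was not estimated. Of the 33 H3K4me3 peaks in the 5 LLC-NR promoters, 24 had an LLC-R peak within 73 bp (72.7%), beside 64.1% of the peaks of all promoters. For H3K9ac the numbers were 22 of 32 (68.8%), beside 66.0%. For H3K27me3 they were 7 of 15 (46.7%), beside 69.6%, with 0 of 2 at Birc2 and 1 of 1 at Birc3. For H3K36me3 they were 7 of 14 (50%), beside 66.3%. The last 2 marks are those with more peaks in LLC-R, and their members' shares rest on few peaks. The Birc2 H3K27me3 peaks at -711 and -272 bp missed the limit narrowly, with the nearest LLC-R peaks at -636 and -352 bp.

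H3K36me3 peaks were also counted in the promoters, where the mark is usually low. At Birc3 it had 1 peak in LLC-NR against 5 in LLC-R, and at Xiap 3 against 7. Birc5 had 3 and 6 peaks, Birc2 had 5 and 6 and Birc6 had 2 and 3, and the mean of all promoters was 3.20 and 4.96. Background windows had means of 3.72 and 5.06, so the 5 LLC-R peaks of Birc3 were at the background level. At Birc3 the LLC-NR peak lay at -785 bp and the LLC-R peaks at -855, -514, -359, -30 and +151 bp, so that the gap over the TSS went from 1777 to 181 bp. The median gap of all promoters went from 683 to 359 bp. Both H3K27me3 and H3K36me3 therefore had new peaks over the Birc3 TSS in LLC-R. These were the marks with 1.26 and 1.36 times the peaks in LLC-R, and their mapped reads differed by more than that. The part of library size and read depth in these gains was not tested.

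Across the gene bodies, all 5 genes were rich in H3K36me3 in LLC-NR and lay between the middle and the upper part of all genes in LLC-R. The densities in LLC-NR were 4.05 peaks per kb in Birc2, 3.8 in Birc3, 3.84 in Birc5, 4.23 in Birc6 and 3.78 in Xiap, at percentiles 81.2 to 97.5 of all genes. In LLC-R they were 4.23, 4.0, 4.0, 4.31 and 4.2 peaks per kb, at percentiles 55.3 (Birc5) to 85.9 (Birc6), beside a median of 3.93 over all genes. The scaled log2 ratios were -0.27 in Xiap, -0.34 in Birc3, -0.35 in Birc2, -0.36 in Birc5 and -0.39 in Birc6, with a median of -0.35, beside -0.07 over all genes. The direction depended on the scaling, since without it the log2 ratios of the 5 genes were 0.03 to 0.14. Past 1.5-fold, 0 of 5 genes were higher, beside 5.85% of all genes, and 0 of 5 were lower, beside 1.29%. With scaling by mapped reads the log2 ratios were -0.98 to -1.10 and 5 of 5 genes were lower past 1.5-fold, beside 69.6% of all genes. Birc6, the longest of the 5, had 743 and 757 peaks and a 95% interval of the log2 ratio from -0.56 to -0.27. Genes of at least 5 kb that started from a like density in LLC-NR had median log2 ratios of -0.27 to -0.38, beside -0.27 to -0.39 in the 5 genes. By LLC-R density, Birc5 and Birc3 stood at percentiles 8.21 and 10.6 of such genes. Birc2, Birc6 and Xiap stood at 36.8, 46.6 and 52.5.

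In Birc6 the H3K36me3 peaks per kb of the LLC-NR library were 3.78, 4.10, 4.49 and 4.56 in 4 equal parts of the gene, counted from the TSS. In LLC-R the same parts had 4.19, 4.42, 4.33 and 4.31 peaks per kb. The density thus rose from part to part along Birc6 in LLC-NR only, a difference that was not tested. No other gene of the 5 rose through all parts in either library. In Xiap the parts had 3.04, 4.16, 3.76 and 4.16 peaks per kb in LLC-NR against 3.84, 3.92, 4.56 and 4.48 in LLC-R.

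H3K27me3 in the gene bodies was higher in LLC-R in all 5 genes after scaling by peaks, by less than 1.5-fold, and lower in all 5 with scaling by mapped reads (log2 ratios -0.40 to -0.51). In Birc2 the density was 2.17 peaks per kb in LLC-NR against 3.35 in LLC-R, and in Birc3 it was 2.53 against 3.72. Birc5 had 2.0 and 2.92, Birc6 had 2.23 and 3.5 and Xiap had 2.66 and 3.86. The log2 ratios ran from 0.19 in Birc5 and Xiap to 0.29 in Birc6, with a median of 0.20, beside 0.05 over all genes. In Birc6, with 392 and 615 peaks, the 95% interval was 0.14 to 0.51. In Birc2 it was -0.33 to 0.93, so that no difference from the library average was detectable at its number of peaks. Past 1.5-fold, 0 of 5 genes were higher, beside 7.68% of all genes. Genes of like density in LLC-NR had median log2 ratios of 0.15 to 0.42. By LLC-R density, Birc5 stood at percentile 6.07 of such genes and Birc2 at 18.9. Birc6, Birc3 and Xiap stood at 33.1, 52.3 and 71.8. In numbers of peaks, Birc5 and Birc6 thus had fewer in LLC-R at the promoter and more in the gene body, whereas Birc2 and Birc3 had more at both.

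**Figure D4:**
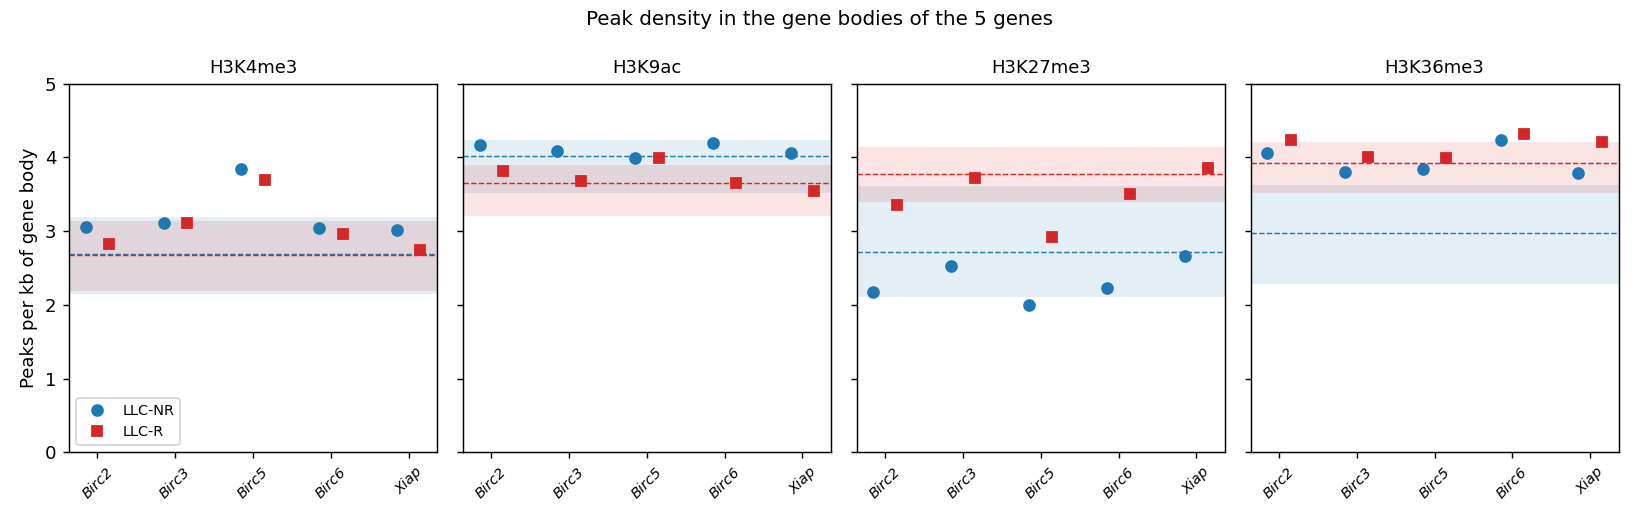
Peaks per kb of gene body (y axis) of the 5 genes (x axis), unscaled, with circles for LLC-NR and squares for LLC-R. Dashed lines and bands are the medians and interquartile ranges of all genes. All 5 genes lie above the LLC-NR band of H3K36me3, from 3.78 to 4.23 peaks per kb, and below or near the median of H3K27me3.

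The 10-kb tiles that overlap the pair gave a wider view. Over 7 tiles, H3K27me3 had 168 peaks in LLC-NR against 248 in LLC-R, or 24 and 35.4 per tile. The scaled log2 ratio was 0.23 (95% interval -0.06 to 0.52), which became -0.54 with scaling by mapped reads, and the central 95% of 244853 tiles of the genome ran from -0.38 to 0.75 around a median of -0.02. In 25800 tiles with a like number in LLC-NR, the median in LLC-R was 36 (interquartile range 33 to 38), next to the 35.4 of the pair. The 20 flanking tiles had means of 29.95 and 38 H3K27me3 peaks and a log2 ratio of 0.01. The low LLC-NR values were not restricted to the pair, since the 4 tiles of Tmem123, on the far side of Birc2 from Birc3, had 22 to 25 peaks in LLC-NR against 37 to 42 in LLC-R. H3K36me3 over the 7 tiles had 232 and 270 peaks with a log2 ratio of -0.22 (-0.48 to 0.03), beside -0.23 in the flanking tiles. H3K4me3 had 210 and 198 peaks (log2 ratio -0.08) and H3K9ac 279 and 247 (log2 ratio -0.05, and 0.63 with scaling by mapped reads).

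**Figure D5:**
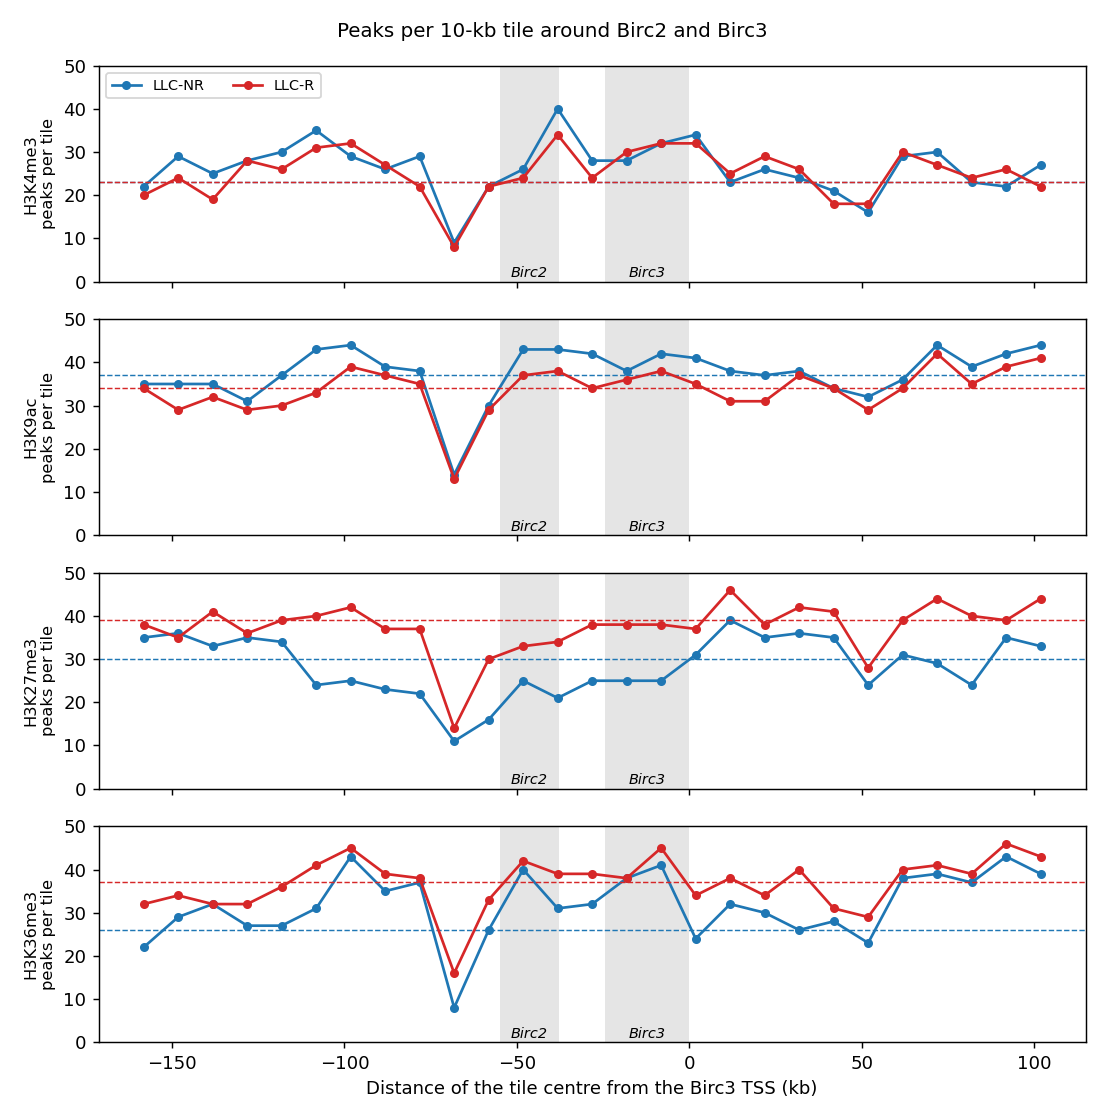
Peaks per 10-kb tile (y axis) against the distance of the tile from the Birc3 TSS in kb (x axis) for the 4 marks, with LLC-NR in blue, LLC-R in red, the gene bodies in grey and the medians of all tiles dashed. H3K27me3 in LLC-NR lies under its median of 30 over most of the pair and over the nearest tiles to its left, while the LLC-R values are 30 to 38.

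Of the 12 protein-coding genes with a TSS within 300 kb, only the pair, chosen for this rise, was past 1.5-fold higher in H3K27me3 promoter peaks. Of all promoters, 10.8% were past it. At its RefSeq start Birc2 was short of it, with a log2 ratio of 0.36. Yap1, a transcriptional co-activator of the Hippo pathway, had 6 and 8 H3K27me3 peaks, and Tmem123 had 5 and 6. C330006D17Rik, whose promoter is nearly that of the RefSeq start of Birc2, had 3 and 5.

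The genes with the most similar pattern over the 8 libraries were not the same for both genes of the pair. For Birc2 they were Nedd8, Clns1a and Slc35b3, at distances of 0.626, 0.764 and 0.773 in z-scores, beside a median of 3.01 over all genes. For Birc3 they were 2210018M11Rik, Rpap2 and 2310046O06Rik, at 0.439, 0.573 and 0.601, beside a median of 3.61. All 3 genes most like Birc3 had 1 H3K27me3 promoter peak in LLC-NR against 4 in LLC-R. The distance includes these peak numbers, so this match follows in part from the ranking itself. The distance between Birc2 and Birc3 was 2.12.

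The wider pathway was read from a list of 27 genes. For H3K27me3 at promoters, 5 of 27 were higher past 1.5-fold (18.5%, beside 10.8% of all promoters) and 2 were lower (7.41%, beside 6.71%), with a median log2 ratio of 0.08 beside -0.06. Among the chromosomal passenger partners of survivin, Aurkb, the mitotic kinase, had 3 and 6 peaks and Cdca8, borealin, had 2 and 5, while Incenp, the scaffold, had 3 and 5. Survivin itself, Birc5, went the other way from 5 to 4. In the TNF receptor arm, Tab2, an adaptor of the kinase TAK1, had 4 and 8 peaks. Traf3, an adaptor that acts with cIAP1 and cIAP2, had 5 and 3, and Cflar, the caspase-8 inhibitor cFLIP, had 4 and 3. The other 8 genes of the arm were within 1.5-fold.

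Among the other BIR genes, Naip2 had 1 and 6 H3K27me3 peaks and Naip5 had 0 and 3. The Naip genes are near-identical copies, and since uniquely mapped reads were used, their peak numbers are uncertain. Naip6 had 0 H3K27me3 peaks in both lines. The 4 antagonists, which include Diablo, and the 4 caspases had 0 genes past 1.5-fold in H3K27me3. For H3K4me3, 1 of 27 was higher (Sept4, an antagonist of Xiap, 3 and 6 peaks, beside 7.28% of all promoters) and 1 was lower (Naip5, 2 and 0, beside 10.5%). For H3K9ac 0 of 27 were past 1.5-fold in either direction, and for H3K36me3 in gene bodies 0 of 27.

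Marker genes gave a coarse check of the tissue. The epithelial markers Epcam, Krt8, Krt18 and Cdh1 had 4 to 6 H3K4me3 promoter peaks in both lines, and the mesenchymal markers had 6 and 5 at Vim, 5 and 6 at Col1a1 and 6 in both lines at Pdgfrb. Markers of host cells also had H3K4me3 peaks, with 6 and 5 at the endothelial Pecam1, 5 and 3 at Cdh5, 3 and 5 at Tek and 4 in both lines at the myeloid Csf1r. Background windows had means of 3.21 and 3.22 in LLC-NR and LLC-R. Numbers of 3 to 5, as at Cdh5, Tek and Csf1r, therefore do not show that host cells contributed. The leukocyte marker Ptprc had 7 peaks in LLC-NR against 4 in LLC-R, and Cd3e had 2 and 1. Past 1.5-fold, 2 of 3 leukocyte markers were thus lower, beside 10.5% of all promoters. The endothelial Cdh5 was also lower past 1.5-fold, while Tek was higher past it, beside 7.28% of all promoters. The part of host cells in the values of the 5 genes was not tested.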

How the data were processed

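ChIP-seq libraries of H3K4me3, H3K9ac, H3K27me3 and H3K36me3 from LLC-NR and LLC-R isografts were analysed, 1 library per line and mark. Per the submitters' processing notes and the methods, the authors aligned reads with Bowtie 0.12.7 to mm9, allowed 2 mismatches, kept uniquely mapped reads and called peaks with GeneTrack, whose settings are not given in the sources used here. The deposited files hold the start and end of each peak in base pairs, with no height, count or score. No input or IgG library was used.

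Peaks were counted by their midpoint in promoters, gene bodies and 10-kb tiles of GENCODE vM1 (NCBIM37), at the TSS shared by most transcripts and, for ties, the upstream one. Counts were divided by the peaks of the library, since numbers of peaks that cannot overlap saturate. A ratio past 1.5-fold was counted without a test. Intervals are exact binomial 95% intervals of the scaled ratio without a pseudocount, so in gene bodies they are not centred on the ratio given. Tiles of the genome had at least 5 peaks in each library. Genes of like density were within 0.1 peaks per kb.

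The genes named were the 5 members, pathway genes past 1.5-fold in a promoter mark with examples of their list, neighbours within 300 kb, the 3 nearest genes by Euclidean distance of z-scores over the 8 libraries, and cell type markers. Yap1, Tmem123, Incenp, Naip6 and Diablo were named after their values were seen. The members and lists were chosen with earlier results of these data known.

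The alternatives were other scalings, including the uniquely mapped reads that the study lists, and other pseudocounts, folds, overlaps, promoter and gene body regions, starts and tiles. Counting was tested on simulated data. Matplotlib 3.10.9, pandas 2.3.3, SciPy 1.17.1 and NumPy 2.4.6 were run under Python 3.11.15.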

Additional observations from a re-analysis of the deposited data

How the results depend on the processing

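Of 100 alternative values of the counts and tile ratios, 85 stayed within 1.5 times the count or within the counting interval, 15 moved further and 0 changed the direction of a called value. A count has no direction to change, and ratios short of 1.5-fold did change sign. With scaling by mapped reads, the tile ratio went from 0.23 to -0.54 for H3K27me3 and from -0.05 to 0.63 for H3K9ac. The gene body H3K27me3 ratios of all 5 genes also changed sign. An unchanged count did not always hold the named genes. Of 195 ratios of single genes, 183 stayed within their counting interval, which is wide in promoters, and 12 left it, in gene bodies under scaling by mapped reads or none. Scaling by mapped reads gave 2 genes higher in H3K9ac (Birc2 and Birc5, with 45.5% of all promoters), 1 higher in H3K27me3 (Birc3, with 2.83%), 2 lower in H3K27me3 (Birc5 and Birc6, with 64.5%), and 5 lower in gene body H3K36me3 (with 69.6% of all genes). The tile ratios became 0.63 for H3K9ac, -0.54 for H3K27me3 and -1.0 for H3K36me3.

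For H3K27me3, the number of genes higher was 1 (Birc3) with a pseudocount of 50% (3.41% of all promoters), with a fold of 2 (3.88%) and at the RefSeq starts (10.8%), which were chosen after seeing the data. It was 3 (Birc2, Birc3 and Xiap) without scaling (19.95%). It was 2, but Birc2 and Xiap, when any overlap counted a peak (10.7%) and with the promoter extended to 1 kb after the TSS (9.16%), where the ratio of Birc3 was 0.56 and 0.07. The number lower was 0 without scaling (1.38%), with a pseudocount of 50% (1.78%), with a fold of 2 (0.738%) and with the extended promoter (4.01%), and 1 (Birc6) with any overlap (4.56%). At the RefSeq starts, 1 gene (Xiap) was lower in H3K9ac, with 6.80% of all promoters. The cause was not tested. Numbers of peaks say nothing of their height, and a promoter of few peaks passes 1.5-fold by a difference of 1 to 3 peaks. No paired analysis was possible because each group held 1 library and the labels carry no replicate numbers.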
